A study of Mus musculus with 2 samples.

Results

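The cells described here are sorted mouse periosteal cells that carried at least 3 of 6 transcripts, Htra4, Prg4, Clic5, Tspan15, Pla1a and Rspo2. They were selected on these transcripts in each library, counting a gene when the cell held at least 1 unique molecule (UMI) of it, among cells with 1000 to 5000 detected genes and less than 25% mitochondrial UMIs. Of 4455 cells that met these limits in the WT library, 132 were selected, or 2.96% (95% exact binomial interval 2.48 to 3.50). Of 5141 in the P1CKO library, 235 were selected, or 4.57% (4.02 to 5.18). They are called Prg4/Htra4 cells, and the 6 transcripts rule genes. Because the rule genes chose the cells, their levels are given as a description throughout.

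The study used single-cell RNA sequencing on the BD Rhapsody whole-transcriptome platform to ask how loss of the mechanosensitive ion channel Piezo1 in the limb mesenchymal lineage bears on periosteal cells. The WT group was Prx1 Cre; Ai9/+ mice and the P1CKO group Prx1 Cre; Ai9/+; Piezo1 fl/fl mice, both 8 weeks old. Both groups therefore carried the Prx1 Cre transgene, which acts in the limb mesenchyme and its descendants, and the Ai9 allele, whose red reporter was used to sort the cells from digests of femurs and tibias with their ends capped in agarose. One library was made per genotype and the number of mice behind each is not given in the sources used here, so genotype and library cannot be told apart, no test between groups was possible, and every interval covers counting error only. Piezo1 itself was represented by 10 UMIs in the WT and 6 UMIs in the P1CKO Prg4/Htra4 cells. In the other stromal cells Piezo1 had 84 and 39 UMIs, a log2 ratio of -1.19 (95% interval -1.79 to -0.63), but counts of 3′ tags do not show whether the floxed exons were removed.

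Prg4 encodes lubricin, the secreted mucin-like glycoprotein that lowers friction on joint surfaces. In joints it is made by the fibroblasts of the synovial lining, a thin layer facing the joint cavity, and by chondrocytes of the superficial zone of articular cartilage. Lining fibroblasts also make hyaluronan and are set apart from sublining fibroblasts, which lie deeper, around vessels, and carry Thy1 and Cd34. Of the other rule genes, Htra4 encodes a secreted serine protease, Clic5 a chloride intracellular channel protein, Tspan15 a tetraspanin that partners the sheddase Adam10, Pla1a a phospholipase that acts on phosphatidylserine, and Rspo2 a secreted enhancer of Wnt signalling.

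The Prg4/Htra4 cells held 1116602 UMIs in the WT and 1999541 in the P1CKO library, with medians of 6800 UMIs and 7214 UMIs per cell, against 4825 and 4619 in all kept cells. When every cell was thinned to 2500 UMIs before selection, the shares were 1.89% and 3.42%. Scrublet called 4 of the WT and 3 of the P1CKO cells doublets. The libraries shared 50 cell barcodes, which included 2 WT and 4 P1CKO Prg4/Htra4 cells.

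The selected cells were of more than 1 kind. In the WT library 67 cells had exactly 3 rule genes, 26 had 4 and 39 had 5 or 6, and in the P1CKO library the numbers were 95, 44 and 96. The kept cells, less the doublet calls, were clustered without the rule genes. Of the cells with 5 or 6 rule genes, 37 of 39 in WT (94.9%) and 94 of 96 in P1CKO (97.9%) fell in 1 cluster of their library, called the lead cluster. The WT lead cluster held 77 cells, of which 71.4% were Prg4/Htra4 cells and 14 had 3 or more chondrocyte markers, and the P1CKO lead cluster held 123 cells, of which 95.9% were Prg4/Htra4 cells and none was chondrocyte-like. Of the cells with 3 rule genes only 4.48% and 4.21% fell there, and of those with 4 rule genes 57.7% and 45.5%. The share of cells in the lead cluster therefore stepped up between 3 and 5 rule genes in both libraries, above the selection threshold. Altogether 55 of the 132 WT cells (41.7%) and 118 of the 235 P1CKO cells (50.2%) lay in the lead cluster. The 4 WT and 3 P1CKO doublet calls among the Prg4/Htra4 cells were not clustered and count as outside it. The cells with 5 or 6 rule genes, a cut chosen after the data were seen, are called core cells. Core cells made up 0.875% (0.623 to 1.19) of kept WT cells and 1.87% (1.52 to 2.28) of kept P1CKO cells.

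**Figure D1:**
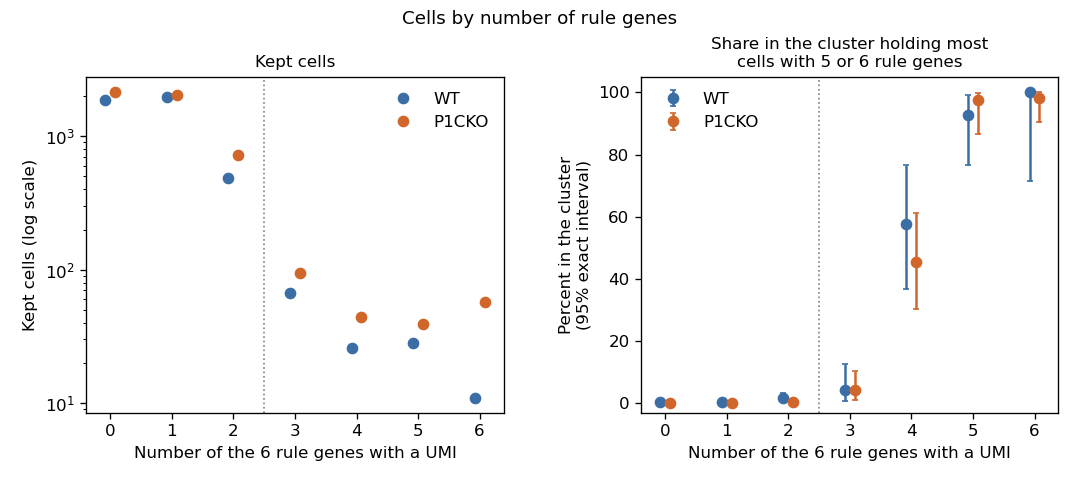
Kept cells by the number of rule genes with a UMI (left, log axis) and the percent of each that fell in the lead cluster (right, with 95% exact binomial intervals), for WT and P1CKO; the dotted line marks the selection threshold. Cell numbers drop from 1966 and 2040 with 1 rule gene to 67 and 95 with 3, while the share in the lead cluster reaches 92.9% and 97.4% at 5 rule genes.

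At the threshold, the cells just inside and just outside it differed little in Prg4. Cells with 2 rule genes, just outside, had a median of 2 Prg4 UMIs in WT and 4 in P1CKO, and those with 3, just inside, had 2 and 8. With 2 rule genes, 163 of 483 WT cells (33.7%) carried Prg4 with Pla1a, and 355 of 721 P1CKO cells (49.2%) carried Htra4 with Prg4. With 3 rule genes, Htra4 was present in 29 of 67 WT cells (43.3%) and in 80 of 95 P1CKO cells (84.2%). The commonest P1CKO set of 3 was Htra4, Prg4 and Pla1a, in 38 of 95 cells (40%). After thinning to 2500 UMIs, 21 of 62 WT cells and 26 of 92 P1CKO cells of the 3-gene group still had 3 rule genes, whereas 37 of 39 and 92 of 93 core cells did.

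Some cells with 3 rule genes carried endothelial transcripts. Of 67 such WT cells, 20 had at least 3 of 6 endothelial markers, and all 20 had Clic5. The combination Prg4, Clic5 and Tspan15 was found in 15 WT cells, of which 14 were endothelial-like by this count. In the P1CKO library 5 of 95 cells were endothelial-like, and the combination was found in 3 cells, of which 2 were endothelial-like. Endothelial-like cells outside the selection carried Clic5 in 78.4% (WT) and 67.0% (P1CKO) and Tspan15 in 19.4% and 9.17%. The summed level of the 6 endothelial markers was 1346 UMIs per 1000000 UMIs of the group (CPM) in WT cells with 3 rule genes, 354 CPM with 4, and 10.6 CPM in core cells, against 20.2 CPM in other stromal cells. The P1CKO sums were 332, 291, 7.04 and 15.2 CPM. Cdh5, Emcn and Kdr were at 0 UMIs in WT core cells, and Cdh5, Pecam1 and Emcn in P1CKO core cells, so the endothelial transcripts were found in cells with fewer rule genes.

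Other classes were represented too. Other stromal cells are defined as kept cells outside the selection with fewer than 3 of 6 markers of each of the endothelial, mural and blood lists, 3363 cells in WT and 3788 in P1CKO. This definition lowers the other stromal sums of these lists, whereas core cells were not filtered on them. Of core cells, 7 of 39 in WT and 15 of 96 in P1CKO had 3 or more mural markers, and 0 and 4 had 3 or more blood markers. The mural list summed to 1036 CPM in WT and 595 CPM in P1CKO core cells, against 191 and 154 CPM in other stromal cells. Rgs5, a regulator of G-protein signalling typical of pericytes, supplied 742 and 252 CPM of these sums and the pericyte proteoglycan gene Cspg4 244 and 279 CPM. The further mural genes Notch3 (2.65 and 4.69 CPM) and Myh11 (2.65 and 3.52 CPM) were low in core cells, and Mcam was at 0 UMIs in WT and 2.35 CPM in P1CKO. The blood list summed to 15.9 and 117 CPM in core cells against 26.7 and 32.7 CPM. Chondrocyte markers summed to 10.6 and 4.69 CPM in core cells against 767 and 190 CPM, and 5 of the 6 were at 0 UMIs in WT. Markers of the Pi16 fibroblasts, the tendon cells and the SSPC-1 stem or progenitor cells named by the study summed to less in core cells than in other stromal cells in both libraries. The SSPC-1 list used here (Col8a1, Egfl6, Fgf18, Gpha2, Dio2 and Itgbl1) holds none of the genes that the study's text names for these cells. The Pi16 list was at 1283 against 1663 CPM in WT and 1119 against 1871 CPM in P1CKO. Cells with 3 rule genes went the other way for this list, at 3415 CPM in WT and 3278 CPM in P1CKO. At least 3 of the 6 Pi16 markers were found in 36 of 67 WT and 65 of 95 P1CKO cells with 3 rule genes. Of other stromal cells, 965 of 3363 and 1246 of 3788 had as many. The Schwann list was at 159 against 85.8 CPM in WT and 133 against 51.1 CPM in P1CKO core cells, nearly all of it S100b, with Sox10 and Cdh19 at 0 UMIs in both. The adipocyte list summed to 1508 CPM in WT and 135 CPM in P1CKO cells with 3 rule genes against 54.0 and 49.8 CPM in other stromal cells. It summed to 21.2 and 23.5 CPM in core cells. In cells with 3 rule genes Plin1, Cidec and Retn were at 0 UMIs in both libraries. Adipoq was also at 0 UMIs in WT, so that sum came from Car3 and Cd36 alone. Over all Prg4/Htra4 cells, Cd36 had log2 ratios of -0.046 and -1.02 once cells with 3 or more endothelial, mural or blood markers were left out. The perineurial list (15.9 and 16.4 CPM) and the muscle list (1 UMI and 0 UMIs) were at or below the other stromal sums in core cells. The part of the mural, blood and other transcripts in the comparisons that follow was not tested beyond leaving out the cells that carried 3 or more of these markers.

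**Figure D2:**
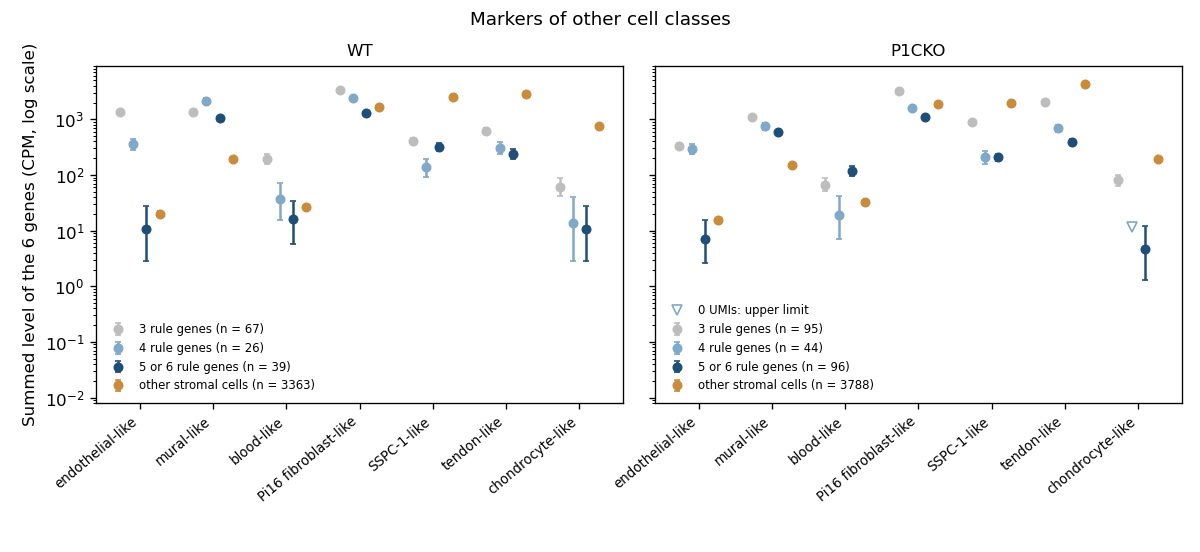
Summed CPM of 7 lists of 6 cell-type markers (log axis) in cells with 3, 4, and 5 or 6 rule genes and in other stromal cells, WT and P1CKO, with 95% exact Poisson intervals; the open triangle is the upper limit for a sum of 0 UMIs. The endothelial sum falls from 1346 CPM with 3 rule genes to 10.6 CPM with 5 or 6 in WT, while the mural sum stays at 595 CPM or above in all 3 groups of both libraries.

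Prg4 was the most abundant transcript of the core cells. A WT core cell held between 6 and 3764 Prg4 UMIs with a median of 1181, and a P1CKO core cell between 2 and 1830 with a median of 282. Prg4 made up 12.8% of all UMIs of WT core cells and 4.57% of those of P1CKO core cells, and it exceeded 10% of the cell's UMIs in 25 of 39 WT and 9 of 96 P1CKO core cells. Cells with 4 rule genes had medians of 118.5 and 90 Prg4 UMIs. The core cells thus varied widely in Prg4 within each library, and the WT and P1CKO ranges overlapped.

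A single Prg4 UMI did not set a cell apart. Prg4 was found in 50.4% of WT and 51.6% of P1CKO other stromal cells, whose median depths were 5045 and 4657 UMIs. It was also found in 10.8% and 17.4% of endothelial-like cells, at 2792 and 2948 UMIs per cell, and in 20.6% and 18.4% of blood-like cells, at 3764 and 3984. Neither is a usual source of lubricin, and shares at or below theirs are read as background. After thinning to 2500 UMIs the shares were 39.6% and 41.3% in other stromal, 7.78% and 17.6% in endothelial-like and 15.7% and 10.7% in blood-like cells. Htra4, in contrast, was found in 7.31% and 14.7% of other stromal cells and in at most 2.00% of endothelial-like or blood-like cells of either library, though in 7.57% and 5.14% of mural-like cells. Among chondrocyte-like cells, Prg4 was at 15499 CPM in 14 WT cells, but 1 cell held 2627 of the 2712 UMIs. It was present in 7 of the 14, with a median of 0.5 UMIs. In 9 P1CKO cells it was at 2155 CPM, and all 99 UMIs lay in 1 cell. Both levels thus rested on 1 cell.

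**Figure D3:**
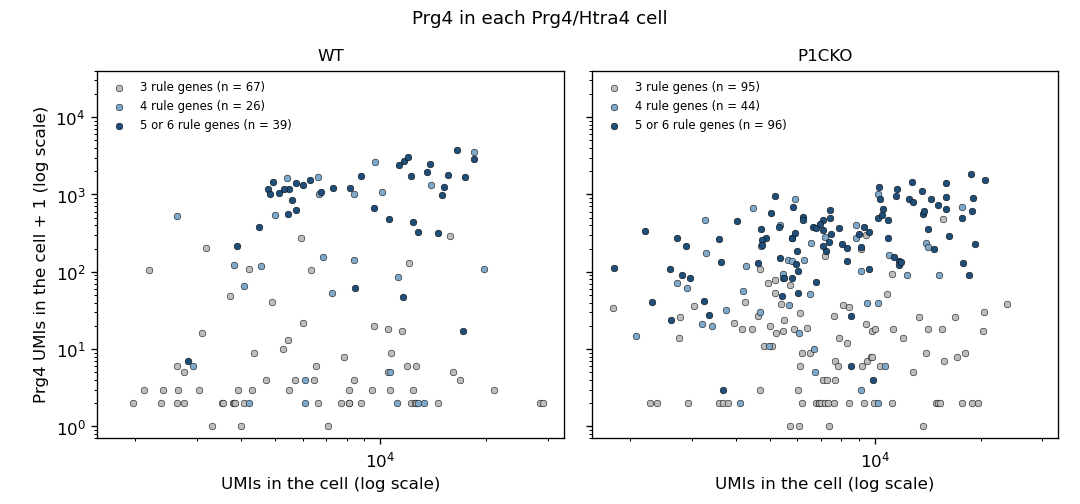
Prg4 UMIs plus 1 against all UMIs of each Prg4/Htra4 cell (both axes log), WT on the left and P1CKO on the right, coloured by the number of rule genes. Core cells sit at medians of 1181 (WT) and 282 (P1CKO) Prg4 UMIs and cells with 3 rule genes at 2 and 8, over a similar range of depth.

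The other rule genes were also widespread among core cells. Htra4, Prg4 and Pla1a were present in all 39 WT and all 96 P1CKO core cells. Clic5 was present in 30 of 39 (76.9%) and 78 of 96 (81.2%), Tspan15 in 35 and 88, and Rspo2 in 24 (61.5%) and 83 (86.5%). Htra4 was at 5057 CPM in WT and 2846 CPM in P1CKO core cells, against 20.6 and 43.4 CPM in other stromal cells. Pla1a was at 1927 and 2879 CPM against 50.0 and 43.9 CPM, and Clic5 at 2136 and 1116 CPM against 6.28 and 2.59 CPM. Tspan15 stood at 538 and 559 CPM against 1.61 and 1.74 CPM, and Rspo2 at 485 and 522 CPM against 5.07 and 5.51 CPM. Rspo2 was thus the least widespread rule gene among WT core cells, and Clic5 among P1CKO core cells.

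Beyond the rule genes, core cells differed from other stromal cells at many transcripts. Here and in what follows a ratio is that of the summed CPM in 1 library, as log2 with 0.5 UMIs added and with a 95% conditional interval where given, and a gene is counted when it passed 2-fold and had, or would have at the other group's level, at least 30 UMIs in the cells. Of 2458 genes so measured in WT, 241 (9.80%) were more than 2-fold higher and 363 (14.8%) more than 2-fold lower in core cells. Of 4989 in P1CKO, 496 (9.94%) were higher and 555 (11.1%) lower. The median over all genes was 0.02 and 0.10. Because Prg4 takes up so large a share of the core cells' UMIs, leaving it out of the totals moved every other WT ratio up by 0.20 and gave 325 genes higher and 276 lower. The libraries were compared with their own stromal cells, and of the 237 WT genes that were higher and measured in both, 168 (70.9%) were also higher in P1CKO, where they were 78.1% of 215. Of the 360 genes lower in WT core cells, 286 (79.4%) were also lower in P1CKO, where they were 82.4% of 347.

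Fibronectin was the second most abundant transcript of core cells. Fn1 took 3.08% of the UMIs of WT and 3.44% of those of P1CKO core cells and was present in every core cell. Per 10000 UMIs of the cell, WT core cells held from 39.6 to 581 Fn1 UMIs with a median of 319, whereas the median of other stromal cells was 16.5. In P1CKO the core cells ranged from 59.9 to 621 with a median of 344, against 18.7 for other stromal cells. The core medians were higher, but single other stromal cells reached into the core range. The log2 ratio of Fn1 was 3.31 (3.28 to 3.33) in WT and 3.02 (3.00 to 3.04) in P1CKO.

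Genes of the lining programme outside the rule were mostly higher. Of the listed lining genes with 30 UMIs, 13 of 17 in WT were more than 2-fold higher and 1 lower, and 12 of 19 in P1CKO were higher and 2 lower, against 9.80% and 9.94% higher over all genes. Hbegf, a membrane-anchored ligand of the EGF receptor, was at 3019 against 36.1 CPM in WT (log2 6.39) and 2208 against 33.3 CPM in P1CKO (6.05). It was present in 33 of 39 and 87 of 96 core cells, with medians of 21.6 and 16.4 per 10000 UMIs where the other stromal median was 0. Has1, a hyaluronan synthase, was at 1816 against 201 CPM in WT and 826 against 239 CPM in P1CKO. The log2 ratios were 3.17 (3.05 to 3.29) and 1.79 (1.67 to 1.90), so Has1 was higher in each library but by unlike amounts.

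Adhesion genes and transcription factors of the lining list followed. Itga6, the integrin subunit alpha 6 that binds laminin, was at 562 against 13.96 CPM in WT (log2 5.33) and at 990 against 8.34 CPM in P1CKO (6.89). Itgb8, an integrin subunit that activates latent TGF-beta, had log2 ratios of 4.70 and 4.24, and Col22a1, a collagen of tissue junctions, 4.38 and 5.85. The secreted guidance factor Sema3a had ratios of 3.65 and 4.25. The transcription factor genes Creb5 (2.10 and 1.91) and Foxo1 (1.55 and 1.94), and Fap, a fibroblast surface protease (1.08 and 1.11), were also past 2-fold in each library. The hyaluronan receptor gene Cd44 was present in 36 of 39 and 92 of 96 core cells, with log2 ratios of 1.56 and 0.97, the latter short of 2-fold. The complement regulator gene Cd55 (1.29 and 0.30) and Ugdh, which makes a hyaluronan precursor (1.51 and 0.48), passed 2-fold in WT alone, and Vcam1 (0.31 and 1.08) and the protease inhibitor gene Timp1 (0.27 and 1.84) in P1CKO alone. Vim, the intermediate filament vimentin, stood at 0.91 and 0.66. Cdh11, the cadherin of fibroblast-like synoviocytes, went the other way, at 34.5 against 647 CPM in WT (log2 -4.18) and 36.4 against 441 CPM in P1CKO (-3.58). The hyaluronan synthase gene Has2 was at -1.50 and -2.66 on 5 and 4 UMIs, and Mmp3, a stromelysin, at -0.96 and -1.94 on 9 and 16 UMIs.

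Sublining genes were lower or near the stromal level. None of the listed genes passed 2-fold upward, and 12 of 15 in WT and 12 of 16 in P1CKO were more than 2-fold lower, where 14.8% and 11.1% of all genes were. The list's median was -2.23 in WT and -3.72 in P1CKO. Thy1, the surface glycoprotein that marks sublining fibroblasts, was present in 6 of 39 WT and 6 of 96 P1CKO core cells, at 53.0 against 287 CPM and 18.8 against 350 CPM. Cd34 had log2 ratios of -1.59 and -3.89 and Pi16, a peptidase inhibitor of adventitial fibroblasts, of -3.10 and -4.48. The chemokine genes Cxcl12 (-3.84 and -2.59) and Cxcl14 (-3.86 and -5.23) and the BMP-family gene Gdf10 (-3.69 and -5.37) were lower still. Dpt, a matrix protein gene of universal fibroblasts, stood at 0.08 and -0.07, and the surface antigen gene Ly6c1 at -0.01 and -0.75 and its relative Ly6a at -0.20 and -0.82. Lining genes above the stromal level and sublining genes below it thus met in the core cells of each library, with Cdh11, Has2 and Mmp3 as the lining genes that lay below in both. The lists were written with earlier results of these data known, and the core cut was chosen after the data were seen. These counts therefore describe the core cells and are no independent support for calling them lining cells.

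The cells at the threshold did not share this pattern. In the 64 WT and 91 P1CKO cells with 3 rule genes outside the lead cluster, Thy1 was at 790 against 287 CPM and 622 against 350 CPM and was present in 39 and 66 cells. Cd34 had log2 ratios of 0.98 and 0.63 there, Fn1 0.27 and 0.76, and Sema3a -0.42 and 0.02. Hbegf stood at 25.7 against 36.1 CPM in WT and 76.0 against 33.3 CPM in P1CKO. Their Thy1 and Cd34 levels were above the stromal level, where those of core cells were below it. The name lining-like, given to the Prg4/Htra4 cells as a working label, is therefore not extended to the cells at the threshold. These genes come from the same lists, and lead-cluster cells were left out of the threshold group. The contrast is thus no independent support for the name in core cells. Cells with 4 rule genes lay between, with Fn1 at 2.40 and 2.44 and Hbegf at 6.37 and 4.19.

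**Figure D4:**
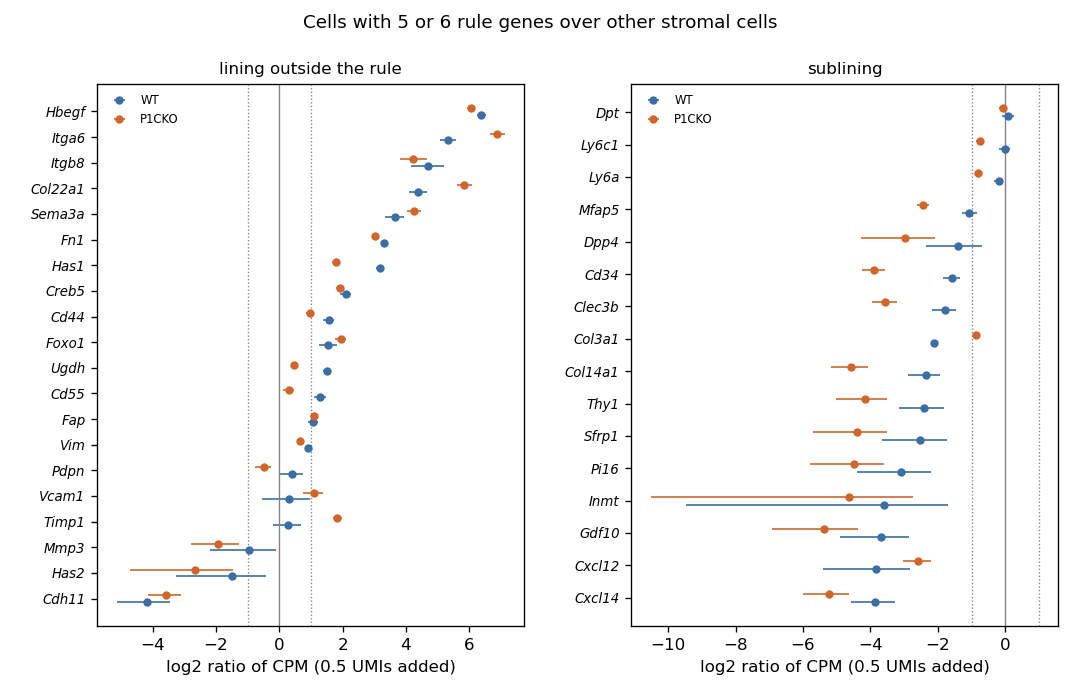
Log2 ratio of summed CPM, core cells over other stromal cells, with 95% conditional intervals, for 20 lining and 16 sublining genes in WT and P1CKO; dotted lines mark 2-fold. Hbegf is at 6.39 in WT and Itga6 at 6.89 in P1CKO, and no sublining gene passes 2-fold upward.

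The most distinctive transcripts were found by rank. Among genes of at least 30 UMIs and 100 CPM in core cells, the 14 with the highest WT ratio were Gria2, 2210407C18Rik, Tmem196, F13a1, Hbegf, Rgs5, Cystm1, Rgcc, Itga6, Gpr1, Rtn1, Gprc5a, Megf10 and Dlx3, and all 14 were more than 2-fold higher in P1CKO as well. Gria2, an AMPA-type glutamate receptor subunit, had 56 UMIs in 18 of 39 WT core cells and none in 3363 other stromal cells, a log2 ratio of at least 9.94 taking 3 counts over those cells. In P1CKO it had 116 UMIs in 35 of 96 core cells and 1 UMI in other stromal cells, a ratio of 10.92 (8.99 to 16.81). Tmem196, a membrane protein gene, had 62 against 3 UMIs in WT and 145 against 13 in P1CKO, and was present in 24 and 48 core cells. These transcripts were thus close to absent from the rest of the stroma, at under 1 CPM.

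F13a1, the A subunit of coagulation factor XIII, was at 1246 against 6.03 CPM in WT (log2 7.69, 26 of 39 core cells) and 1669 against 14.1 CPM in P1CKO (6.88, 88 of 96). Rgcc, a regulator of cell cycle, was at 3679 against 69.0 CPM and 2725 against 72.4 CPM, in 37 and 93 core cells. Rgs5 was at 742 against 11.5 CPM (22 of 39) and 252 against 6.31 CPM (51 of 96), and since mural cells are not in the other stromal group, its P1CKO ratio against all other kept cells was -0.36. Gpr1, a chemerin receptor (5.29 and 5.37), Rtn1, a reticulon of neurons (5.16 and 5.94), Gprc5a, a retinoic acid-induced receptor (4.79 and 5.04), and Megf10, an engulfment receptor (4.79 and 4.46), had ratios of like size in the 2 libraries. 2210407C18Rik rested on few cells, 9 of 39 and 16 of 96, with 58 of its 81 WT UMIs in 1 cell.

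Developmental regulators of the joint were mixed. Of the listed genes, 4 of 8 in WT and 4 of 12 in P1CKO were more than 2-fold higher and 1 and 3 lower, against 9.80% and 9.94% higher and 14.8% and 11.1% lower over all genes. Sox5, a chondrogenic partner of Sox9, was at 286 against 20.3 CPM in WT (log2 3.82) and 461 against 15.8 CPM in P1CKO (4.87), in 33 and 80 core cells. The repressor gene Trps1 had ratios of 1.19 and 0.82 and the forkhead gene Foxc1 1.05 and 0.69. Barx1, a homeobox gene, was in 13 of 96 P1CKO core cells (log2 4.57) and had 1 UMI in WT. Gdf5, the signal of the joint interzone, had 0 UMIs in core cells of either library. It had only 16 UMIs in WT and 64 UMIs in P1CKO other stromal cells. The upper limits of its log2 ratio were 3.77 and 0.56, so a lower level in core cells is not shown. The interzone ligand gene Wnt9a (-1.58 and -2.38) and the regulator gene Osr1 (-1.67 and -2.996) were lower. Cd9, a tetraspanin gene, stood at 0.49 and 0.12, and Ext1, which builds heparan sulphate, at -1.07 and -0.08.

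Cartilage and tendon genes were low. Of the cartilage list, 10 of 10 in WT and 9 of 10 in P1CKO were more than 2-fold lower, against 14.8% and 11.1% of all genes. Acan, the aggrecan core protein, had 0 UMIs in WT core cells where other stromal cells were at 140 CPM, a log2 ratio at or below -4.14, and 3 UMIs in P1CKO (-4.73). Col2a1, the collagen of cartilage, was at 10.6 against 503 CPM in WT. Sox9, the chondrogenic regulator, had ratios of -1.42 and -1.19, the matrix gene Comp -2.46 and -5.40, and Cilp -4.53 and -3.83. Col11a1, a collagen of cartilage fibrils, was at -4.95 and -4.28, and the chondrocyte cytokine gene Cytl1 had 0 UMIs in WT and 3 UMIs in P1CKO core cells (log2 at or below -2.19, and -2.88). Matn4, a matrilin, was the cartilage gene above the stromal level, at 1.62 on 26 UMIs in WT and 2.70 in P1CKO. Of the tendon list, 9 of 10 and 10 of 11 were lower, beside the same shares, Tnmd (-5.82 and -5.99), Thbs4 (-3.27 and -3.61) and Angptl7 (-5.04 and -4.80) among them. Angptl7 is also the gene that the study uses to mark SSPC-1. The tendon regulator gene Scx had 0 UMIs in WT core cells and 94.99 against 191 CPM in P1CKO (-1.001).

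The osteogenic list followed the same direction, with 12 of 15 and 12 of 17 genes more than 2-fold lower, against 14.8% and 11.1% of all genes. Col1a1, the main collagen of bone matrix, had a WT core median of 76.0 UMIs per 10000 (3.64 to 272) where other stromal cells had 262, and was at 9173 against 47901 CPM, log2 -2.38. In P1CKO the core median was 86.9 (5.89 to 534) against 251, and the summed level was 12164 against 37371 CPM (-1.62). Postn, the periosteal matrix protein gene (-4.09 and -2.49), the osteoblast regulator gene Runx2 (-2.58 and -2.83) and the mineralisation gene Ibsp (-3.18 and -4.81) were lower. Col1a2 (-2.76 and -2.92), the partner chain of Col1a1, and Spp1, osteopontin (-1.75 and -1.59), were past 2-fold as well, and Sparc, osteonectin, was at -1.44 and -0.95. The exceptions were Dlx3, a homeobox gene at 244 against 9.19 CPM and 389 against 7.16 CPM (log2 4.73 and 5.76), and Smpd3, a sphingomyelinase gene (2.29 and 2.61).

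Matrix genes divided by type. Of the collagen genes 11 of 17 in WT and 10 of 19 in P1CKO were more than 2-fold lower, while 3 in each library were higher, against 9.80% and 9.94% higher and 14.8% and 11.1% lower over all genes. The higher ones included the basement membrane collagens, Col4a1 at 1492 against 536 CPM and 3153 against 659 CPM (log2 1.48 and 2.26) and Col4a2 (1.62 and 2.12), along with Col22a1. The fibril-associated Col12a1 (-5.14 and -4.03), Col8a1 (-3.50 and -2.47) and Col5a1 (-2.09 and -1.66) were lower, and Col6a1 stood at -0.74 and -0.89. Of proteoglycan and hyaluronan genes, 3 and 2 were higher and 9 of 15 and 9 of 16 lower, beside the same shares over all genes. Decorin, Dcn, had core medians of 22.4 and 23.5 UMIs per 10000 where other stromal cells had 95.7 and 95.2, and ratios of -1.69 and -1.999. Lum (-4.16 and -3.08), Fmod (-4.69 and -5.09), Ogn (-2.68 and -4.51) Aspn (-3.83 and -3.94) and Prelp (-3.47 and -4.47), small leucine-rich proteoglycans that bind fibrils, were lower, and Bgn, another of them, stood at -0.05 and -0.22. The hyaluronidase gene Cemip had 2 UMIs in WT core cells, and in P1CKO was at 80.9 against 6.79 CPM.

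Protease genes lay in both directions, with 4 of 20 higher and 7 lower in WT and 6 of 25 higher and 10 lower in P1CKO, against 9.80% and 9.94% higher and 14.8% and 11.1% lower over all genes. The lysosomal cathepsin genes Ctsd (1.44 and 1.54) and Ctsb (1.09 and 1.19) passed 2-fold in each library, and Ctsk stood at 0.63 and 1.22. The gelatinase gene Mmp2 (-1.58 and -1.35), the collagenase gene Mmp13 (-5.70 and -4.68) and the inhibitor genes Timp3 (-1.997 and -2.48) and Serpinf1 (-2.26 and -3.48) were lower, and the inhibitor gene Timp2 stood at -0.50 and -0.62. Of basement membrane and integrin genes, 10 of 17 in WT and 13 of 21 in P1CKO lay within 2-fold of the stromal level. With 2 and 3 higher, the shares higher were close to those over all genes. The 5 lower in each library were a larger share than the 14.8% and 11.1% over all genes. The laminin chain gene Lama5 had ratios of 3.64 on 10 UMIs and 4.34 on 34 UMIs, and Lama2 of -1.50 and -3.90. The basement membrane genes Nid1 (-0.60 and -0.93) and Lamc1 (-1.09 and -0.78), and the matrix receptor genes Itgb1 (0.29 and 0.67) and Dag1 (0.61 and 0.73), lay nearer to the stromal level.

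No gene of the Wnt list was more than 2-fold higher among those measured, 11 in WT and 16 in P1CKO, and 10 and 14 were lower, against 9.80% and 9.94% higher and 14.8% and 11.1% lower over all genes. Wif1, a secreted Wnt inhibitor, had 0 UMIs in the core cells of either library (log2 at most -4.11 and -4.17), and the antagonist genes Sfrp4 (-3.84 and -3.21), Dkk2 (-2.64 and -4.75) and Dkk3 (-3.11 and -2.23) and the ligand gene Wnt16 (-2.46 and -3.67) were lower. The receptor genes Lrp6 (-1.61 and -1.43) and Fzd1 (-0.91 and -1.31) and the antagonist gene Sfrp1 (-2.53 and -4.40) also lay below the stromal level. The nuclear mediator gene Tcf7 had ratios of 2.39 and 2.95 on 9 and 13 UMIs. Of the TGF-beta and BMP list 2 genes were higher in each library and 7 of 16 and 11 of 22 lower, beside the same shares over all genes. Ccn2, a matricellular target of TGF-beta and YAP, was at 4636 against 1684 CPM in WT (1.46) and 4188 against 2223 CPM in P1CKO (0.91), and the latent TGF-beta binding gene Ltbp3 had ratios of 1.06 and 1.71. The ligand gene Bmp6 was at 1.04 on 6 UMIs and 3.26 on 44 UMIs. The receptor genes Tgfbr2 (0.05 and -0.33) and Tgfbr3 (-0.27 and -0.84), the latent TGF-beta binding gene Ltbp4 (-1.04 and -1.09) and the BMP target gene Id3 (-0.84 and -1.07) were closer to the stromal level. Among growth factor genes, 0 and 2 were higher and 13 of 18 and 14 of 19 lower, with Igf1 at -3.03 and -3.94 and the imprinted gene H19 at -4.09 and -6.82. Igfbp5, which binds insulin-like growth factors, had core medians of 39.8 and 107 UMIs per 10000, where other stromal cells had 18.1 and 16.8. Its ratios of summed CPM were 0.02 and 1.17, above 2-fold in P1CKO alone, although the core median was the higher in both libraries. The related genes Igfbp4 (0.35 and 0.74), Igfbp6 (-1.60 and -2.43) and Igfbp7 (-1.29 and -1.59) lay on either side of the stromal level. Pdgfra, a receptor for platelet-derived growth factor, stood at -0.36 and -0.99, and Fgf2, a fibroblast growth factor gene, at -0.93 on 13 UMIs and -4.39 on 2 UMIs.

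Immune, lipid and stress genes gave further contrasts. Of the immune and complement list 1 and 2 were higher and 11 of 17 and 14 of 21 lower, against 9.80% and 9.94% higher and 14.8% and 11.1% lower over all genes, among them the complement gene C3 (-1.49 and -3.08) and the complement inhibitor gene Serping1 (-1.70 and -3.12). Ccl2, a monocyte chemokine, had 2 UMIs in WT and 5 UMIs in P1CKO core cells. Csf1, a growth factor for macrophages, stood at 0.61 and 0.42, the class I antigen subunit gene B2m at 0.85 and 0.79 and the chemokine gene Cxcl1 at 0.50 and 0.09. Of the lipid list none was higher and 4 of 7 and 4 of 9 were lower, beside the same shares over all genes, with the prostacyclin synthase gene Ptgis at -3.34 and -4.82 and the lipocalin gene Apod at -2.77 and -4.73 and the lysophosphatidic acid receptor gene Lpar1 at -0.44 and -0.09. Immediate early genes, which respond quickly to cell handling, were near the stromal level in WT (1 of 12 higher, none lower) and divided in P1CKO (3 higher and 3 lower), where Fos stood at -1.03 and the heat shock genes Hspa1a at 1.59 and Hspa1b at 1.25. Jun (-0.57 and -1.10), Jund (-0.25 and -0.64) and Egr1 (-0.13 and -0.70), which encode early transcription factors, were below the stromal level in P1CKO. Of the mechanosensing list 1 of 7 in WT and 0 of 9 in P1CKO were higher, and 3 and 5 lower, beside the same shares over all genes. Yap1 (-0.17 and -0.11) and Tead1 (-0.19 and -0.09), the transcriptional pair of the Hippo pathway, were close to the stromal level. The YAP target genes Ccn1 (-1.38 and -2.09) and Amotl2 (-1.80 and -2.98) were lower, whereas the YAP target gene Ccn2 lay above the stromal level, as given before. The co-activator gene Wwtr1 was at -1.43 and -1.06 and the kinase gene Lats2 at -0.41 and -0.22. Piezo1 had 4 and 5 UMIs and Piezo2 had 1 and 6 UMIs in core cells, too few to compare. Cell-cycle transcripts were found in 2 of 39 (5.13%) and 3 of 96 (3.13%) core cells, against 2.23% and 2.03% of other stromal cells. Top2a, a topoisomerase gene of dividing cells, had 1 and 2 UMIs, Birc5, a survivin gene, had 0, and Ccnb1, a cyclin gene, had 0 in WT and 15 UMIs in 1 P1CKO core cell.

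The 10 genes with the lowest WT ratio among those of at least 100 CPM in other stromal cells were Acan, Wif1, Tnmd, Fibin, Prss35, Mmp13, Lrrc15, Kera, Ncam1 and Col2a1, several of them genes of cartilage or tendon. Fibin, a secreted protein gene, had ratios of -5.81 and -5.57, and Kera, the keratocan proteoglycan gene, of -5.45 and -4.70. Lrrc15, a surface protein gene of activated fibroblasts, was at -5.57 in WT and -2.72 in P1CKO, where 1 cell held 13 UMIs. Ncam1, an adhesion molecule gene, was at -5.43 and -2.82.

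Over all Prg4/Htra4 cells, which include the cells with 3 and 4 rule genes, the contrast with other stromal cells was smaller and of another makeup. Of 5836 genes measured in WT, 378 (6.48%) were more than 2-fold higher and 376 (6.44%) lower. Of 7561 in P1CKO, 400 (5.29%) were higher and 410 (5.42%) lower. The 14 WT genes with the highest ratios were F13a1 (log2 6.73), Flt1 (6.69), Rgs5 (6.52), Timp4 (6.12), Cd36 (5.82), Cd93 (5.79), Hbegf and Ptprb (both 5.50), Fabp4 (5.47), Tspan13 (5.21), Cdh5 (5.17), Cystm1 (5.13), Pecam1 (5.12) and Tie1 (4.98). Flt1, a VEGF receptor, Cdh5, the endothelial cadherin, and Tie1, an endothelial receptor kinase, are endothelial genes, and Flt1 was found in 22 of 132 cells. Without the 37 WT cells that had 3 or more endothelial, mural or blood markers, Flt1 stood at -0.39, Ptprb at -3.09 and Pecam1 at -1.04. Flt1 had 1 and 2 UMIs in WT and P1CKO core cells. F13a1, Hbegf, Rgs5 and Cystm1 were also among the 14 highest in core cells, whereas the endothelial genes belonged to cells with fewer rule genes.

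The lining list kept its direction over all Prg4/Htra4 cells and the sublining list lay near the stromal level. Lining genes outside the rule were higher in 12 of 20 (WT) and 10 of 20 (P1CKO), against 6.48% and 5.29% of all genes, with medians of 1.46 and 1.06. Sublining genes were lower in 5 of 16 and 4 of 16, against 6.44% and 5.42% of all genes, with medians of 0.05 and -0.25 where core cells had -2.23 and -3.72. Thy1 was at 469 against 287 CPM in WT and 311 against 350 CPM in P1CKO over all Prg4/Htra4 cells, whereas in core cells it was at 53.0 and 18.8 CPM. Fn1 had log2 ratios of 2.33 and 2.34. The 10 genes with the lowest WT ratios were Wif1 (-6.68), Col2a1 (-5.74), Tnmd (-4.03), Mfap4 (-3.55), H19 (-3.50), Kera (-3.47), Ostn (-3.33), Egfl6 (-3.32), Col8a1 (-3.32) and Fmod (-3.29).

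Against the classes most like them, core cells kept most of these contrasts. The SSPC-1-like class held 253 WT and 349 P1CKO cells, the Pi16 fibroblast-like class 802 and 956, and the chondrocyte-like class 14 and 9, each by 3 or more of 6 markers. Against SSPC-1-like cells the log2 ratio of Fn1 was 4.47 in WT and 3.76 in P1CKO, that of Hbegf 7.23 and 6.37, and that of Col1a1 -1.90 and -1.27. Relative to Pi16 fibroblast-like cells, Fn1 stood at 2.34 and 2.30, Hbegf at 7.82 and 6.86, Itga6 at 4.87 and 6.76, and Thy1 at -3.54 and -5.00. Set against chondrocyte-like cells, Col2a1 was at 10.6 against 55614 CPM in WT. The ratio of Fn1 to the chondrocyte-like level was 1.88 in WT and 0.00 (-0.07 to 0.08) in P1CKO, that of Itga6 3.72 and 3.34, and that of Igfbp5 5.56 and 6.63. F13a1 was at 0 UMIs in WT chondrocyte-like cells and at 2329 CPM in the 9 P1CKO cells. Col2a1 is one of the markers that define the chondrocyte-like class, so its contrast follows from that definition, while the Fn1 contrast was present in 1 library and absent in the other.

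Between genotypes, the rule genes are given first, as a description of genes that chose the cells. Prg4 was at 127898 CPM in WT and 45652 CPM in P1CKO core cells, a log2 ratio of P1CKO over WT of -1.49 (-1.51 to -1.47), where other stromal cells gave 0.26. Per cell the interquartile range was 517.5 to 1712 UMIs in WT and 130.5 to 551 UMIs in P1CKO, with overlap at their edges. Htra4 had a ratio of -0.83 in core and 1.07 in other stromal cells, and Clic5 of -0.94 and -1.27. Pla1a stood at 0.58 and -0.19, Tspan15 at 0.05 and 0.11, and Rspo2 at 0.10 and 0.12. Core cells were thus more numerous among the kept P1CKO cells and held fewer Prg4, Htra4 and Clic5 UMIs in proportion to their total, in 1 library of each genotype.

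Of 5441 other genes, 339 (6.23%) were more than 2-fold higher and 118 (2.17%) lower in P1CKO core cells. With Prg4 left out of the totals all ratios moved by -0.13, and 247 were higher and 160 lower. Over all Prg4/Htra4 cells 254 of 8421 (3.02%) were higher and 343 (4.07%) lower. Of the measured lining genes 2 of 18 were higher and 2 lower, with a median of 0.03, against 0.14 over all genes. Has1 stood at -1.14 in core cells and 0.25 in other stromal cells, Cd55 at -1.05 and -0.06, Timp1 at 2.33 and 0.77, and Hbegf at -0.45 and -0.11. Of sublining genes 2 of 11 were higher and 5 lower, with Cd34 at -2.02 and Col3a1, a fibrillar collagen, at 1.31. Of collagen genes 3 of 18 were higher and 2 lower, with Col4a1 at 1.08 and Col1a1 at 0.41. The counts of the lining list were therefore about even between the directions, while more sublining genes were lower than higher.

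The genes of core cells with the strongest ratios between genotypes are given with the cells that held them. S100a9, a neutrophil calcium-binding protein gene, had 222 UMIs in P1CKO and 3 in WT (log2 4.81, 3.47 to 7.32), in 24 of 96 cells with up to 145 in 1. Its partner S100a8 had 116 and 0 UMIs in 16 cells, up to 70 in 1, and in other stromal cells the ratios of S100a9 and S100a8 were 4.05 and 3.50. The antiprotease gene Slpi had 69 and 0 UMIs and the decoy receptor gene Il1r2 40 and 0. These 4 genes are abundant in neutrophils. The blood list, which holds none of the 4, summed to 117 CPM in P1CKO and 15.9 CPM in WT core cells. The source of these transcripts was not tested. Scx had 81 and 0 UMIs, in 16 of 96 P1CKO core cells, with a ratio of 2.62 in other stromal cells. On the lower side Sema3d, a secreted semaphorin gene, had 15 UMIs in P1CKO and 94 in WT (-3.78, -4.72 to -3.03), against -0.07 in other stromal cells, and Gpc3, a glypican gene, stood at -3.54. For Myoc (-3.21) 62 of 75 WT UMIs came from 1 cell, and for Chad (-2.87) 57 of 111.

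Over all Prg4/Htra4 cells, the genes with the strongest genotype ratios included Scx, S100a9 and Slpi again, with log2 ratios of 5.95, 4.96 and 4.92, and several that rested on few cells. Npy, a neuropeptide gene, had 30 UMIs in 1 P1CKO cell and 0 in WT, and Pln, a calcium-pump regulator gene of muscle, 30 in 3 cells and 0 in WT. Car3, a carbonic anhydrase gene of fat and muscle, had 128 UMIs in 3 WT cells and 0 in P1CKO. Bglap, osteocalcin, had 791 WT UMIs, 536 of them in 1 cell, and 24 in P1CKO, and Prss35 had 232 and 2. Gjb2, a connexin gene, had 30 UMIs in 1 WT cell and 0 in P1CKO, and Tcf15, a transcription factor gene, had 30 UMIs in 11 WT cells, all of them endothelial-like, and 1 UMI in P1CKO. None of these is a difference between conditions that 1 library per genotype could show.

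**Figure D5:**
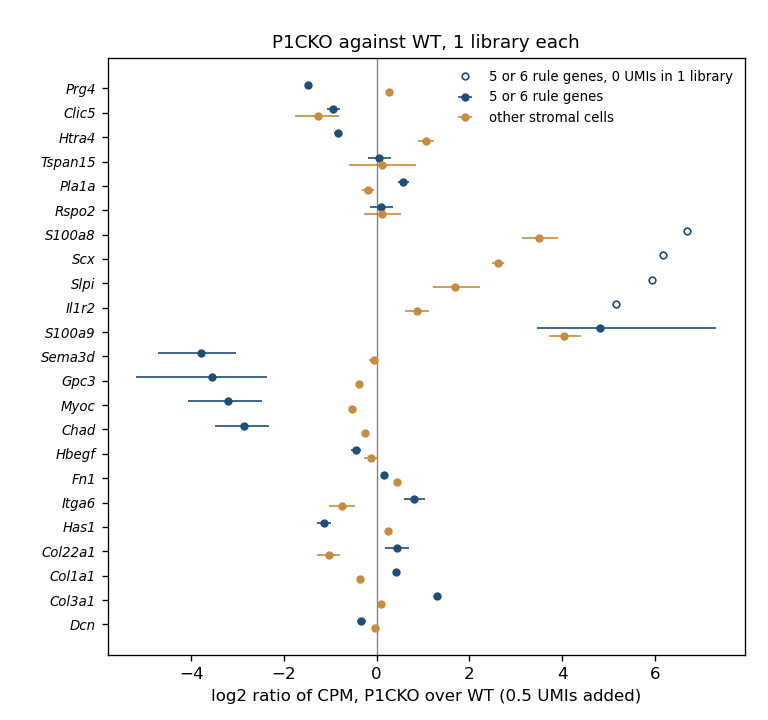
Log2 ratio of P1CKO over WT with 95% conditional intervals for genes named in the text, in core cells and in other stromal cells; open circles mark genes with 0 UMIs in 1 library. Prg4 lies at -1.49 in core cells and 0.26 in other stromal cells.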

How the data were processed

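The deposited files were 1 matrix of UMI counts per library, which the authors made from BD Rhapsody reads and which were used as deposited. The submitters' processing notes name fastp, UMI-tools, STAR and Seurat 4.0.3, and the counting settings are not given in the sources used here. Of 31253 features, 31107 matched the annotation by identifier, and the first row was used of each of 48 repeated symbols.

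The limits on detected genes (1000 to 5000) and mitochondrial UMIs (below 25%) left 4455 of 6118 WT and 5141 of 7469 P1CKO barcodes. Counts were summed over cells with Python 3.11.15 and scipy 1.17.1, expressed as CPM, and compared as log2 ratios with 0.5 UMIs added. Intervals (95%) are exact Poisson, Clopper-Pearson or conditional binomial and cover counting error only. Doublets were called with Scrublet (scanpy 1.11.5) and kept, except in the clustering, which left them out. Clusters were made with Seurat 5.3.0 in R 4.3.3 (2000 features without the rule genes, 20 components, resolution 0.4). The sum and ratio code was tested on simulated data. With 1 library per genotype there was no test and no p-value, and genes were called past 2-fold.

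Named genes were the 14 highest and 10 lowest WT ratios (where the higher group had 30 UMIs and 100 CPM or more), the up to 5 most abundant genes of each of the 18 lists with its extremes, and the 5 strongest genotype ratios each way, leaving out mitochondrial, ribosomal, hemoglobin and sex-linked genes. One gene that this rule named is not reported here. Other genes, and the group with 5 or 6 rule genes, were named after their values were seen. The members and lists were chosen with earlier results of these data known. The alternatives were 14 planned choices (rule threshold, filters, depth, comparison cells, weighting, added UMIs) and 14 added after seeing the data.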

Additional observations from a re-analysis of the deposited data

Results flagged for a closer look

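Log2 ratios of the Prg4/Htra4 cells over the other stromal cells of their own library had opposite signs in WT and P1CKO, with intervals that did not reach 0, for 11 named genes. These differences between the libraries were not tested, since each genotype had 1 library. The ratio was positive in WT and negative in P1CKO for the carbonic anhydrase gene Car3 (1.51 and -6.54), osteocalcin, Bglap (0.72 and -3.14), Sema3d (1.08 and -1.92), the microfibril gene Mfap5 (0.57 and -0.24), the lipid phosphatase gene Plpp3 (0.30 and -0.10) and the proliferation genes Mki67 (2.01 and -4.11) and Cdk1 (1.61 and -3.28). It was negative in WT and positive in P1CKO for Npy (-4.03 and 0.99), Ctsk (-0.16 and 0.67), the complement gene C4b (-0.52 and 0.13) and the cytokine gene Il6 (-1.83 and 0.46).

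In the cells with 5 or 6 rule genes, the same held for Sema3d (1.33 and -2.39), Il6 (-2.53 and 1.25) and the stress-response gene Atf3 (1.21 and -0.23), again without a test. Il6 was found in 2 of 39 WT and 20 of 96 P1CKO core cells, and 1 P1CKO cell held 77 UMIs of it. Npy rested on 30 UMIs in 1 P1CKO cell with 0 in WT, and Car3 on 128 UMIs in 3 WT cells with 0 in P1CKO. Mki67 and Cdk1 had 26 and 10 UMIs, each in 2 WT cells, and 0 in P1CKO, where 3 counts bound the ratios at -1.51 and -0.68.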

How the results depend on the processing

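With 1 library per genotype no result has a replicate check, and Poisson and binomial intervals are too narrow for a difference between mice. Depth limits genes with few UMIs: 3 UMIs equalled 7.95 CPM in the 39 WT core cells. No paired analysis was possible because each genotype had 1 library. The share of core cells in the lead cluster stayed within its interval at another clustering resolution. For the Prg4/Htra4 cells, 1426 of 2832 recomputed gene ratios stayed within their intervals, 1355 moved and 51 reversed, and 120 of 468 list medians moved. For core cells 1765 of 2196 stayed, 429 moved and 2 reversed, and 347 of 360 list medians stayed.

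The shares of Prg4/Htra4 cells in WT and P1CKO were 13.8% and 18.6% with at least 2 rule genes, 1.46% and 2.72% with at least 4, 2.44% and 3.72% with 500 to 6000 detected genes, 1.89% and 3.42% after thinning to 2500 UMIs, and 1.53% and 2.80% with at least 3 rule genes other than Prg4. Thinning to 2500 UMIs, which leaves fewer UMIs and so fewer measured genes, gave 160 genes higher and 182 lower in WT, 233 and 264 in P1CKO, and 161 higher and 99 lower between genotypes. In core cells it gave 43 and 66, 163 and 178, and 115 and 36. A minimum of 10 UMIs, which admits more genes, gave 738 and 641 in WT, 725 and 655 in P1CKO, and 561 and 759 between genotypes, and in core cells 523 and 820, 932 and 940, and 923 and 415. Against all other kept cells 652 genes were lower in P1CKO. With at least 5 rule genes 241 were higher in WT. The number lower in P1CKO than in WT Prg4/Htra4 cells was 184 with at least 4 rule genes, 118 with at least 5, 206 with at least 3 other than Prg4, 209 without cells that had 3 or more endothelial, mural or blood markers, and 134 in the lead cluster. The cause of these changes was not tested.

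The reversed ratios were of endothelial and mural genes, with Ly6c1 and Il6. Leaving out cells with 3 or more endothelial, mural or blood markers gave, in WT, Flt1 -0.39, Timp4 -0.91, Cd36 -0.046, Ptprb -3.09, Fabp4 -0.88, Tspan13 -2.17 and Pecam1 -1.04, and in P1CKO Flt1 -1.63, Timp4 -1.12, Cd36 -1.02, Cd93 -0.11, Ptprb -1.58, Fabp4 -0.87, Tspan13 -3.47, Cdh5 -1.23, Pecam1 -2.36 and Tie1 -3.05. At least 5 rule genes gave, in WT, Timp4 -1.40, Ptprb -1.999, Fabp4 -0.70, Tspan13 -1.07, Cdh5 -1.38 and Ly6c1 -0.0068, and in P1CKO Timp4 -1.70, Ptprb -1.31, Fabp4 -0.35, Cdh5 -1.81, Pecam1 -2.94 and Tie1 -2.05. Timp4, Ptprb, Tspan13 and Cdh5 in WT rested on 0 UMIs in core cells, with 95% upper limits of 1.54, 0.92, 1.87 and 1.56. Timp4, Cdh5, Pecam1 and Tie1 in P1CKO also had 0 UMIs, with upper limits of 1.27, 1.16, -0.021 and 0.90. Where the upper limit is positive, a reversal is not shown. Cells of the lead cluster gave, in WT, Timp4 -1.73, Ptprb -2.33, Fabp4 -0.75, Tspan13 -1.41, Cdh5 -1.71, Tie1 -0.016 and Ly6c1 -0.24, and in P1CKO Flt1 -0.12, Timp4 -1.93, Ptprb -1.54, Fabp4 -0.47, Cdh5 -2.04, Pecam1 -3.17 and Tie1 -2.28. Against all other kept cells, P1CKO ratios were Rgs5 -0.051, Timp4 -0.77, Cd36 -1.36, Cd93 -0.84, Ptprb -0.44, Fabp4 -0.30, Tspan13 -0.11 and Tie1 -0.23, and Rgs5 was -0.36 in core cells. After thinning, Il6 was -1.33 in P1CKO core cells.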
